A study of Mus musculus with 84 samples.

Results

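The Cyp2c family was followed in mouse liver through 10 genes, Cyp2c29, Cyp2c37, Cyp2c38, Cyp2c39, Cyp2c50, Cyp2c54, Cyp2c55, Cyp2c67, Cyp2c68 and Cyp2c70. They were picked by symbol from the 17695 genes of the count table. The reason was that several of them had shown higher counts than control in earlier results of these data, at FT 10, MT 50, MT 100 and PT 80 ppm. Their values in these groups are therefore a description, given without p. Calls in these groups are counted, but the choice of the members favoured them in advance. All 10 genes were found, and 9 of them had a median count above 8 over the mice and entered the fit of 10415 genes. Cyp2c38 did not, and no fitted value is given for it. Male B6C3F1 mice, 8 weeks old, ate AIN-93G diet for 7 days with or without 1 of 3 organophosphate pesticides (OPPs). The 84 mice formed 12 groups of 7: a control group on diet without pesticide, fenthion (FT) at 2.5, 5, 10 and 20 ppm, methidathion (MT) at 10, 25, 50 and 100 ppm, and parathion (PT) at 20, 40 and 80 ppm. Liver RNA, taken from a mix of 3 lobes per mouse, was profiled by TempO-Seq, which reads out pairs of detector oligos joined where both bind the same RNA. Cages that held several mice, not single mice, were assigned to the groups. Mice of a group thus include cage mates, but the labels do not say which, and the tests treat all mice as independent.

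Cyp2c enzymes are microsomal cytochrome P450 monooxygenases of the hepatocyte. They oxidize drugs and other foreign compounds and turn arachidonic and linoleic acid into epoxides and hydroxylated products. Several are induced through the constitutive androstane receptor (CAR, encoded by Nr1i3) and the pregnane X receptor (PXR, encoded by Nr1i2), nuclear receptors that respond to foreign compounds, and hepatic transcription of the family also depends on HNF4A. Hepatic P450s are the enzymes that convert organothiophosphate pesticides such as FT, MT and PT into their oxons, the forms that inhibit acetylcholinesterase.

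The members lay in 1 cluster on chromosome 19, between positions 38995462 and 40175777 of GRCm39, with Cyp2c55 at one end and Cyp2c70 at the other. The 250 bases before the annotated start of the canonical transcript are shown for 4 members whose levels moved in different groups, namely Cyp2c29 (chr19:39275268-39275517, plus strand), Cyp2c55 (chr19:38995212-38995461, plus strand), Cyp2c39 (chr19:39499056-39499305, plus strand) and Cyp2c54 (chr19:40062283-40062532, minus strand). They were read 5′ to 3′ on the gene's strand from GRCm39. Capitals mark AGGTCA or AGTTCA, the hexamers that CAR and PXR bind as direct repeats, and CAAAGTC, the core of the HNF4A motif, on either strand.
Cyp2c29: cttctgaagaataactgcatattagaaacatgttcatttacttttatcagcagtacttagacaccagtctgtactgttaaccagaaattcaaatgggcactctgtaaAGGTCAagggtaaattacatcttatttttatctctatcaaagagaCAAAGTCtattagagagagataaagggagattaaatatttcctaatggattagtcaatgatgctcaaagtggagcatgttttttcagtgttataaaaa
Cyp2c55: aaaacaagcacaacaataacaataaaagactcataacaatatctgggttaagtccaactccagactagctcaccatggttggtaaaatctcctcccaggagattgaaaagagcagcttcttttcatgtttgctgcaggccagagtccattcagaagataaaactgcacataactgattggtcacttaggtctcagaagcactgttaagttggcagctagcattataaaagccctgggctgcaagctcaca
Cyp2c39: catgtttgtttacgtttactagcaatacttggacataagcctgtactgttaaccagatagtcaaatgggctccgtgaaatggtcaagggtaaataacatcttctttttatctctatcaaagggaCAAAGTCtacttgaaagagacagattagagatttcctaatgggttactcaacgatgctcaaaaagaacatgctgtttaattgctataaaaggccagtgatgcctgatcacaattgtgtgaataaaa
Cyp2c54: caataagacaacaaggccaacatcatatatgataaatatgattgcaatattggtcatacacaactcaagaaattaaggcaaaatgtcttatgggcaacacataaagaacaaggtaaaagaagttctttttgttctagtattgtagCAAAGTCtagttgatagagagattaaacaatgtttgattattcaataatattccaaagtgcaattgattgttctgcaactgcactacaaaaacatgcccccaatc

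The HNF4A core CAAAGTC was found in 7 of the 10 members, in Cyp2c29, Cyp2c37, Cyp2c39, Cyp2c54, Cyp2c67, Cyp2c68 and Cyp2c70, and in 3.62% of 21770 promoters of the same length. It was not found in these windows of Cyp2c38, Cyp2c50 or Cyp2c55. A hexamer AGGTCA or AGTTCA was found in Cyp2c29 and Cyp2c70 and in 23.4% of all promoters. A direct repeat of these hexamers spaced by 4 bases was found in 0 of the 10 members and in 0.0184% of all promoters. TATAAA was found in 5 members and in 11.9% of all promoters. These matches describe letters in a short window and not binding.

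Paralogs of this family are close enough that reads may not always be assigned to 1 gene. Coding sequences of Cyp2c67 and Cyp2c68 were 97.2% identical, those of Cyp2c37 and Cyp2c50 96.1%, those of Cyp2c50 and Cyp2c54 95.2%, and those of Cyp2c38 and Cyp2c39 94.2%. Of all stretches of 50 bases, the read length of the assay, 96.6% in Cyp2c67, 95.4% in Cyp2c68, 74.8% in Cyp2c37 and 72.3% in Cyp2c50 had a match with at most 2 mismatches in another Cyp2c transcript. The share was 37.7% in Cyp2c54, 35.3% in Cyp2c39, 32.9% in Cyp2c38 and 18.2% in Cyp2c29, and only 0.717% in Cyp2c55 and 0% in Cyp2c70. In the deposited counts, Cyp2c55 and Cyp2c70 had whole numbers in every mouse. The other 8 members had counts that were not whole in between 86.9% and 100% of mice. The authors' quantification can split reads between transcripts, but what made counts not whole was not tested. Cyp2c23, a Cyp2c gene outside the list, had 0% of such stretches in another Cyp2c transcript, yet counts not whole in 48.8% of mice. Where the detector oligos bind was not known, so which reads are shared could not be checked. Whole counts of Cyp2c55 and Cyp2c70 show no sign of a split, while how far the other 8 rest on one is unknown.

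**Figure D1:**
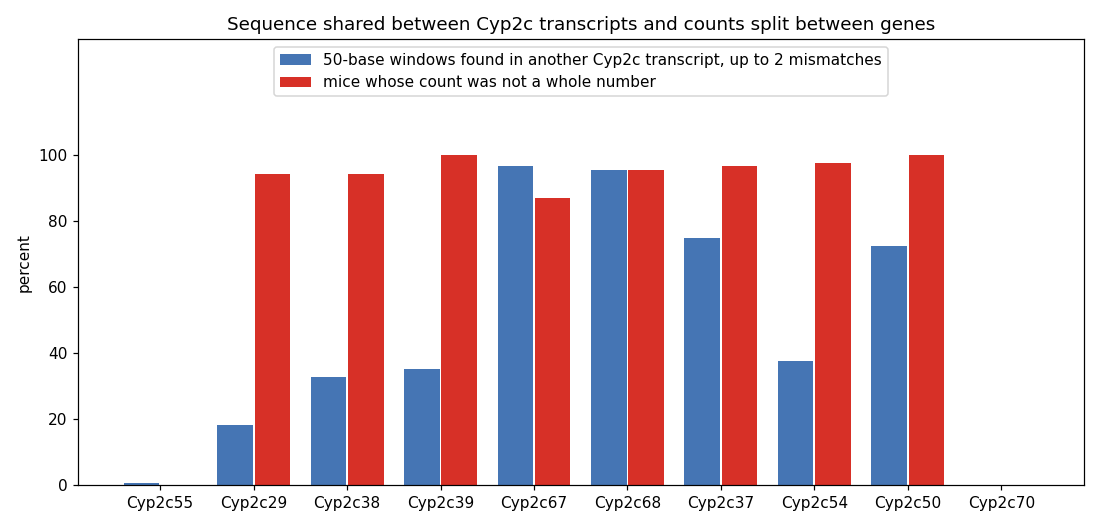
For each of the 10 members, in order along the chromosome, the percent of 50-base stretches of its transcript found in another Cyp2c transcript with at most 2 mismatches (blue bars) and the percent of the 84 mice whose count was not a whole number (red bars). Cyp2c67 and Cyp2c68 share 96.6% and 95.4% of their stretches, whereas Cyp2c55 and Cyp2c70 share 0.717% and 0% and have no count that is not whole.

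A mouse had 6950381 to 15300589 counts in all. Levels are given as CPM, a count relative to the total of its mouse, and are not compared between genes because the number of probes per gene was not known. A floor of 3 counts corresponds to between 0.196 and 0.432 CPM, and covers counting error only. Each group held 2 mice of block 1, 3 of block 3 and 2 of block 4, and RNA of 7 mice, among them 2 controls and 2 mice at MT 100 ppm, was isolated by the EPA and that of the others by EA. Hepatocyte markers (6 of 8 listed in the table) summed to between 18289 and 38117 CPM in controls, 22815 and 28788 at MT 100 ppm and 22349 and 38793 at PT 80 ppm. Of the pancreas markers, Ctrb1, Pnlip, Cpa1 and Prss2 had a median of 0, as had Epcam of the cholangiocyte list and Lgals4 of the intestine list. In whole liver, fewer cells of a type and less RNA per cell cannot be told apart.

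Cyp2c29, an arachidonic acid epoxygenase and a classical CAR target of mouse liver, was highest at MT 100 ppm. Control mice had 593, 919 and 1579 CPM (lowest, median and highest). Mice at MT 100 ppm had 3249, 6019 and 7295 CPM, so that each exceeded every control, and the group mean of 5856 CPM was 5.91-fold that of the controls. At MT 50 ppm the values were 1798, 2226 and 3132 CPM, again without overlap with controls, whereas MT 10 ppm (861, 1390 and 2005 CPM) and MT 25 ppm (1158, 1602 and 2061 CPM) overlapped them. The largest step along the MT doses was from 50 to 100 ppm, where the fitted difference was 1.27 ± 0.21 on the log2 scale (SE).

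With PT, Cyp2c29 read 646, 1190 and 1988 CPM at 20 ppm, 995, 2001 and 2692 CPM at 40 ppm, and 1545, 2831 and 3582 CPM at 80 ppm. At 80 ppm 6 of 7 mice lay above the highest control. FT gave a flatter course, with medians of 1421, 1648, 1664 and 1625 CPM at 2.5, 5, 10 and 20 ppm, and 5 of 7 mice at 10 ppm above the highest control. Ordered by mean, the groups ran from control (991 ± 324 CPM, SD) through PT 20, MT 10, FT 2.5, FT 20, MT 25, FT 5, FT 10, PT 40, MT 50 and PT 80 to MT 100 ppm (5856 ± 1400.4 CPM). The ranges of every neighbouring pair in this order overlapped. The fitted log2 fold change against control was 2.54 ± 0.21 (SE) at MT 100 ppm, 1.28 ± 0.21 at MT 50 ppm, 1.39 ± 0.21 at PT 80 ppm and 0.87 ± 0.21 at FT 10 ppm. Within blocks 1, 3 and 4, the log2 ratio of means was 2.29, 3.07 and 2.20 at MT 100 ppm and 1.75, 1.95 and 0.69 at PT 80 ppm. At FT 10 ppm it was 0.84, 1.64 and -0.20, so that block 4 had the opposite sign.

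Cyp2c55, which forms 19-hydroxyeicosatetraenoic acid and is inducible through CAR and PXR, was high at MT 100 ppm and not at PT 80 ppm. Its levels were low in control liver, with 0.783, 1.87 and 4.00 CPM. Mice at MT 100 ppm had 6.73, 15.4 and 22.9 CPM, every mouse above every control, and the mean was 6.68-fold that of controls. Mice at PT 80 ppm had 0.735, 1.57 and 2.69 CPM, all below the highest control. Its fitted log2 fold change was 2.77 ± 0.28 at MT 100 ppm and -0.31 ± 0.33 at PT 80 ppm. These doses differ, and both values rest on the same 7 controls.

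Lower doses placed Cyp2c55 in between. Its medians were 4.54, 3.24 and 4.29 CPM at 10, 25 and 50 ppm of MT, and 3.47, 4.00, 4.20 and 2.81 CPM at 2.5, 5, 10 and 20 ppm of FT. At FT 10 ppm, where 4 of 7 mice exceeded the highest control, the fitted value was 1.33 ± 0.30, and the difference from FT 10 to FT 20 ppm was -0.89 ± 0.28. PT 20 and 40 ppm had medians of 2.01 and 3.34 CPM, with no mouse above the highest control. Counts of Cyp2c55 were whole numbers in every mouse, and only 0.717% of its 50-base stretches matched another Cyp2c transcript within 2 mismatches. These values thus show no sign of split reads. In blocks 1, 3 and 4 its log2 ratio at MT 100 ppm was 3.11, 3.14 and 2.21, and at FT 10 ppm it was 1.42, 2.18 and -0.21, so that block 4 differed in sign there.

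**Figure D2:**
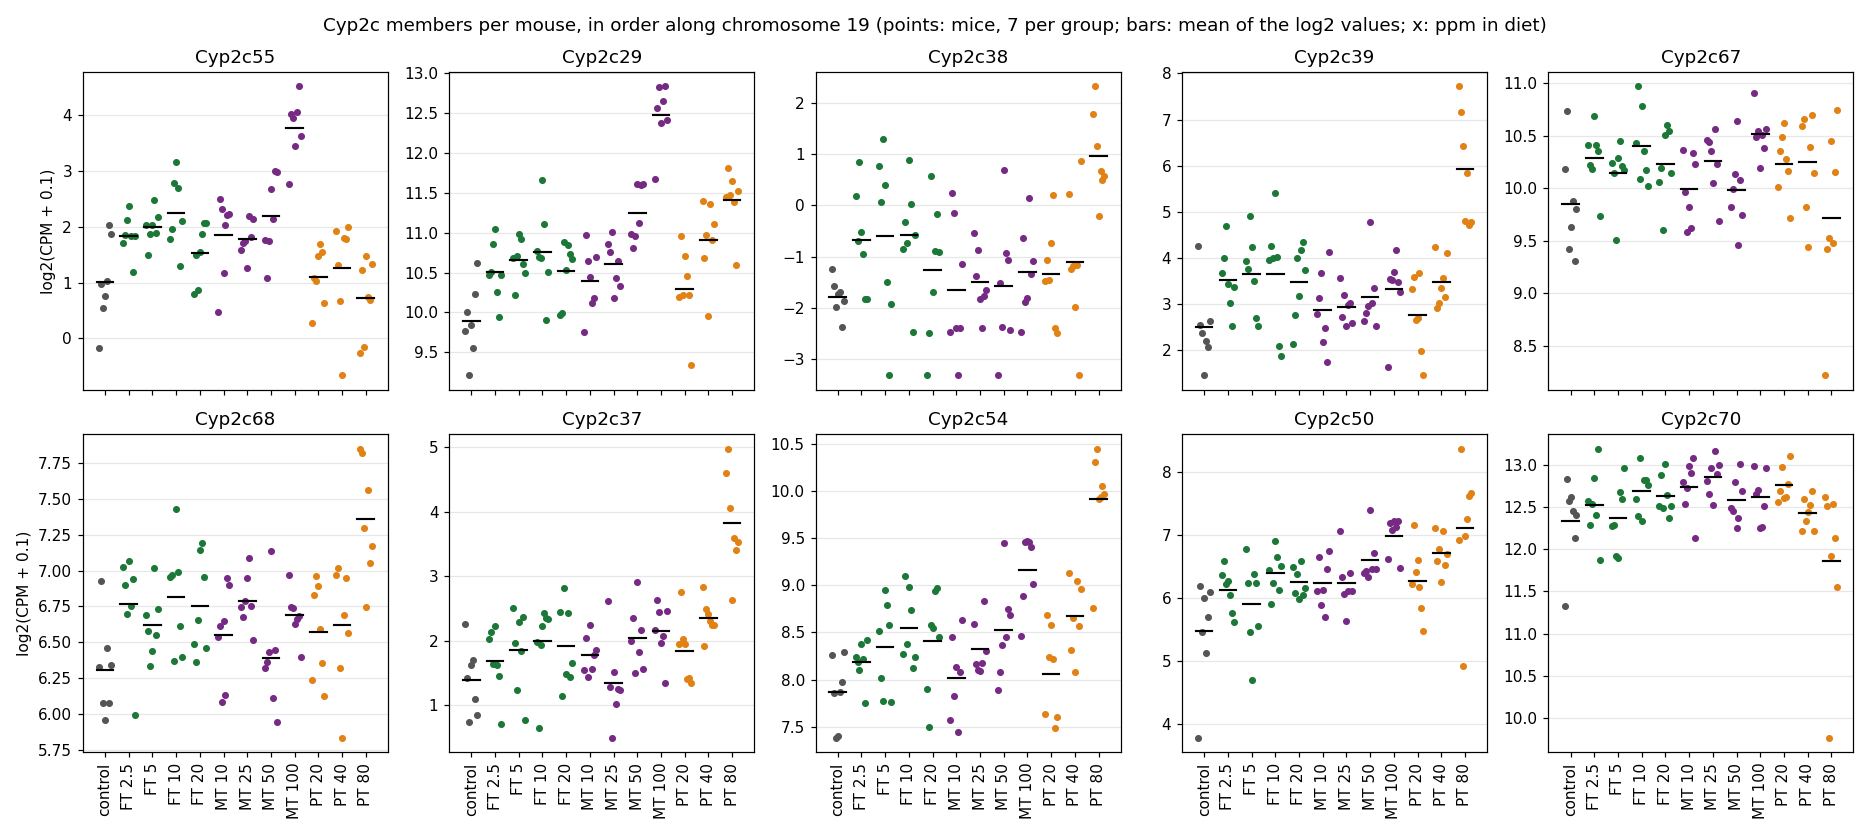
Level of each of the 10 members as log2(CPM + 0.1), with 1 panel per gene, against the group from control to PT 80 ppm in the diet. Points are mice (7 per group) and bars are means of the log2 values. Cyp2c29 and Cyp2c55 sit highest at MT 100 ppm, whereas Cyp2c37, Cyp2c38, Cyp2c39 and Cyp2c54 sit highest at PT 80 ppm and Cyp2c70 overlaps the controls in every group.

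Cyp2c39, a retinoic acid hydroxylase, and its close paralog Cyp2c38 were high at PT 80 ppm. Controls had 2.63, 5.03 and 18.9 CPM of Cyp2c39, the last value in a single control mouse that stood apart. Mice at PT 80 ppm had 25.9, 57.5 and 210.9 CPM, so that none overlapped the controls, and the mean was 12.3-fold higher. At PT 20 and 40 ppm the medians were 6.32 and 10.1 CPM, and no mouse exceeded the highest control. MT 100 ppm, with 3.00, 11.3 and 17.8 CPM, also stayed within the control range. Its medians were 6.74, 7.78 and 7.61 CPM at MT 10, 25 and 50 ppm, and 10.7, 13.5, 15.7 and 13.2 CPM at FT 2.5, 5, 10 and 20 ppm, with 1 mouse above the highest control at MT 50 ppm and in each FT group.

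The fitted log2 fold change of Cyp2c39 was 3.48 ± 0.43 at PT 80 ppm and 0.72 ± 0.42 at MT 100 ppm. The step from PT 40 to 80 ppm was 2.54 ± 0.41. Within blocks 1, 3 and 4 the log2 ratio at PT 80 ppm was 3.84, 3.82 and 2.39, whereas at MT 100 ppm it was -0.76, 1.79 and 1.01. Cyp2c38 had between 1.03 and 4.09 counts in controls, near the floor, and between 9.13 and 61.3 counts at PT 80 ppm. Every mouse at PT 80 ppm (0.767, 1.49 and 4.91 CPM) lay above every control (0.0921, 0.200 and 0.320 CPM), but no fold change is given, since the controls sit at the floor. At FT 2.5, 5, 10 and 20 ppm 5, 4, 6 and 4 of 7 mice also lay above the highest control, as did 5 of 7 at PT 40 ppm and 2 or 3 of 7 in each remaining group. Such mice can sit near the floor as well. At PT 40 ppm replicates 2, 3 and 5 had only 4.05, 4.09 and 4.08 counts, against 4.09 in the highest control.

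Cyp2c37, Cyp2c50 and Cyp2c54 are epoxygenases of arachidonic and linoleic acid and near copies of each other. Cyp2c54 was higher than control at the top doses of both MT and PT. Controls had 167, 234 and 314 CPM, mice at MT 100 ppm 353, 677 and 706 CPM and mice at PT 80 ppm 434, 1004 and 1397 CPM, with no overlap in either case. The means were 2.47-fold and 4.24-fold that of controls. Its medians at PT 20 and 40 ppm were 298 and 402 CPM, those at MT 10, 25 and 50 ppm were 270, 289 and 349 CPM, and those at FT 2.5, 5, 10 and 20 ppm were 297, 366, 333 and 373 CPM.

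Cyp2c50 had 13.6, 51.5 and 72.6 CPM in controls and cleared that range in more groups than any other member. Mice at MT 50 ppm had 80.4, 87.7 and 168 CPM, those at MT 100 ppm 88.8, 139 and 150 CPM, and those at PT 40 ppm 75.8, 104 and 138 CPM, all above the highest control. At PT 80 ppm it had 30.1, 153 and 333 CPM, with 1 mouse inside the control range. In the other groups its medians lay between 68.9 CPM at MT 25 ppm and 86.9 CPM at FT 10 ppm, and 3 to 5 of 7 mice exceeded the highest control. Cyp2c37, at 1.58, 2.57 and 4.70 CPM in controls, had 6.06, 11.9 and 31.4 CPM at PT 80 ppm, without overlap, and 2.43, 4.39 and 6.10 CPM at MT 100 ppm, with overlap. The mean of Cyp2c37 at PT 80 ppm was 5.97-fold that of controls. Its medians in the other groups lay between 2.28 CPM at MT 25 ppm and 4.83 CPM at PT 40 ppm, where 4 of 7 mice exceeded the highest control.

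The fitted log2 fold changes at PT 80 ppm were 2.32 ± 0.27 for Cyp2c37, 1.65 ± 0.28 for Cyp2c50 and 2.03 ± 0.22 for Cyp2c54. At MT 100 ppm they were 0.77 ± 0.27, 1.36 ± 0.27 and 1.26 ± 0.22. Within blocks 1, 3 and 4, the log2 ratio at PT 80 ppm was 2.93, 2.16 and 2.54 for Cyp2c37, 2.40, 1.12 and 1.74 for Cyp2c50 and 1.66, 2.55 and 1.87 for Cyp2c54. Since reads of these paralogs may be hard to separate, they were also summed. The sum of the 3 was 292 ± 57.6 CPM (SD, n = 7) in controls, 724 ± 159 CPM at MT 100 ppm and 1197 ± 329 CPM at PT 80 ppm, 2.48-fold and 4.10-fold higher, and neither group overlapped the controls. The sum of Cyp2c29, Cyp2c38 and Cyp2c39 was 998 ± 323 CPM in controls, 5868 ± 1403 CPM at MT 100 ppm and 2881 ± 658 CPM at PT 80 ppm.

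Cyp2c67 and Cyp2c68 had smaller differences. Cyp2c67 had 631, 892 and 1700.2 CPM in controls, 1171, 1456 and 1919 CPM at MT 100 ppm, where 1 mouse exceeded the highest control, and 298, 738 and 1714 CPM at PT 80 ppm, where 1 mouse lay above and 1 below the control range. Its fitted log2 fold change was 0.63 ± 0.21 at MT 100 ppm and -0.12 ± 0.22 at PT 80 ppm, and within blocks 1, 3 and 4 the log2 ratio at PT 80 ppm was -1.54, 0.24 and 0.90. Cyp2c68 had 62.02, 80.4 and 121.5 CPM in controls and 107, 157 and 231 CPM at PT 80 ppm, with 6 of 7 mice above the highest control and a fitted value of 0.98 ± 0.17. Its values at MT 100 ppm were 84.1, 103 and 125 CPM. In the 9 other dosed groups the medians of Cyp2c67 ran from 1000.0 CPM at MT 10 ppm to 1344 CPM at PT 40 ppm and those of Cyp2c68 from 82.1 CPM at MT 50 ppm to 124 CPM at FT 10 ppm, each group overlapping the controls. The 6 Cyp2c genes outside the list had median counts of 233 (Cyp2c23), 49.5 (Cyp2c40), 1.50 (Cyp2c53-ps), 1.00 (Cyp2c69) and 0 (Cyp2c65 and Cyp2c66). Of the close relatives of Cyp2c67 and Cyp2c68, Cyp2c40 had 3.58 ± 1.50 CPM in controls and 7.08 ± 1.43 CPM at PT 80 ppm, and Cyp2c69 had 1.03, 8.92 and 35.3 CPM in 3 mice at PT 80 ppm but 0.265 CPM or less in the other 4 and 0.702 CPM or less in every other group. Summed with Cyp2c40 and Cyp2c69, the pair gave 1057 ± 387 CPM in controls, 1584 ± 237 CPM at MT 100 ppm and 1138 ± 440 CPM at PT 80 ppm, with overlap at both doses.

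Cyp2c70, which in mice hydroxylates bile acids at the 6β position to form muricholic acids, held most of the family's counts and overlapped the controls in every group. Controls had 2577, 5609 and 7276 CPM, mice at MT 100 ppm 4885, 6428 and 8138 CPM and mice at PT 80 ppm 871, 4485 and 6312 CPM. The mouse with 871 CPM was the only one of the 84 below the lowest control. The group medians ranged from 4485 CPM at PT 80 ppm to 7581 CPM at MT 25 ppm, where 4 of 7 mice exceeded the highest control. The fitted log2 fold change was 0.23 ± 0.21 at MT 100 ppm and -0.49 ± 0.21 at PT 80 ppm. Within blocks 1, 3 and 4 the log2 ratio at PT 80 ppm was 0.30, -0.75 and -0.41, so that its sign differed between blocks.

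**Figure D3:**
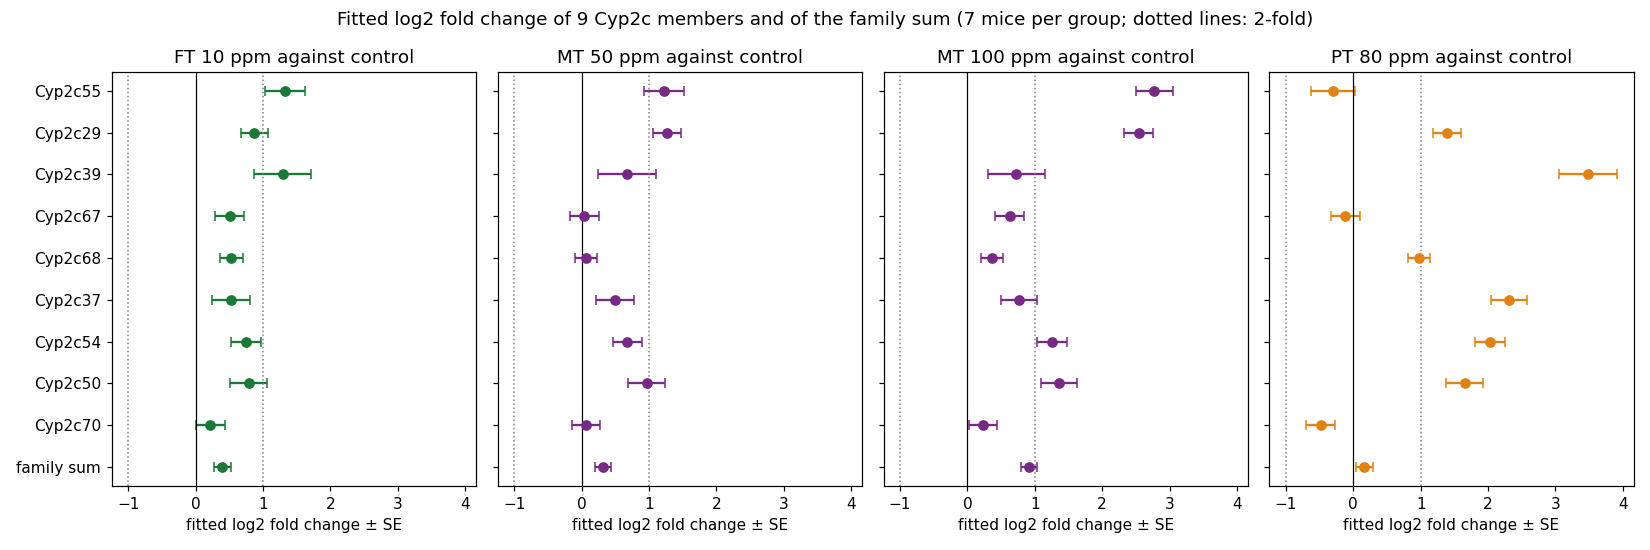
Fitted log2 fold change against control (horizontal axis) of the 9 members in the fit and of the family sum at FT 10, MT 50, MT 100 and PT 80 ppm, 1 panel each, with bars for the SE and dotted lines at 2-fold. At MT 100 ppm Cyp2c55 (2.77) and Cyp2c29 (2.54) lead, whereas at PT 80 ppm Cyp2c39 (3.48) and Cyp2c37 (2.32) lead and Cyp2c55 lies at -0.31.

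A few mice at PT 80 ppm stood apart, and not in the same members. Replicate 3 had the lowest values of Cyp2c50 (30.1 CPM) and Cyp2c70 (871 CPM), whereas replicate 1 had the highest Cyp2c39 (210.9 CPM) with the lowest Cyp2c67 (298 CPM) and Cyp2c54 (434 CPM). The number of members called at PT 80 ppm was 5 with all 7 mice, 5 without replicate 1 and 6 without replicate 3, when Cyp2c68 reached 2-fold (1.00). In controls, replicate 1 had the lowest Cyp2c50 and Cyp2c70 and the highest Cyp2c39.

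A gene was called when its adjusted p was under 0.05 (edgeR quasi-likelihood test with Benjamini-Hochberg adjustment over 10415 genes) and its change at least 2-fold. At MT 100 ppm 4 of 9 members were called higher, Cyp2c29, Cyp2c55, Cyp2c50 and Cyp2c54, where 0.048% of all genes were, or 5 genes, the other being Cyp3a11, a PXR and CAR target that oxidizes steroids and drugs. Without the mice isolated by EPA, calls remained for Cyp2c29 and Cyp2c55, while Cyp2c50 (1.25) and Cyp2c54 (1.10) kept their direction. At MT 50 ppm 1 member, Cyp2c29, was called, where 0.0096% of all genes were. At PT 80 ppm 5 members, Cyp2c29, Cyp2c37, Cyp2c39, Cyp2c50 and Cyp2c54, were called higher, where 1.63% of all genes were. At FT 10 ppm 1 member, Cyp2c55, was called, where 0.115% of all genes were, and the call was lost without control replicate 5 (1.32), whereas 2 members were called without control replicate 1 or replicate 7. No member was called lower in any group (at PT 80 ppm 1.67% of all genes were, and 8.89% by the adjusted p alone, and at FT 10 ppm 0.096% and 0.739%). All these calls come from groups that had served to choose the members, so the choice favoured them in advance. They are a description and not a test. Nothing is read from them or from the share of all genes beside them.

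The next values at FT 10, MT 50, MT 100 and PT 80 ppm likewise come from groups that had served to choose the members. Nothing is read from them. Every mouse exceeded every control for 4 members at MT 100 ppm, where this held for 0.0768% of all genes. The same was true of 2 members at MT 50 ppm (0.0288% of all genes), 3 of the 9 at PT 80 ppm (0.903%) and 1 at PT 40 ppm (0.115%). The median fitted log2 fold change of the 9 members was 0.75 at FT 10 ppm, 0.67 at MT 50 ppm, 0.77 at MT 100 ppm and 1.39 at PT 80 ppm, with the median of all genes within 0.01 of 0 in each.

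Summed over the family, the counts made up 0.774% ± 0.166 of all counts in controls (SD, n = 7), 1.46% at MT 100 ppm and 0.953% at PT 80 ppm. The family sum was 5036, 7665 and 10446 CPM in controls and 12324, 14641 and 16399.9 CPM at MT 100 ppm, so that every mouse at MT 100 ppm lay above every control and the mean was 1.88-fold higher. At PT 80 ppm it was 6131, 9707 and 12111 CPM, with 2 of 7 mice above the highest control. At every other dose the sum overlapped the controls, with means between 8809 CPM at FT 5 ppm and 10856 CPM at MT 25 ppm. The fitted log2 fold change of the family sum was 0.91 ± 0.12 at MT 100 ppm and 0.17 ± 0.12 at PT 80 ppm. Except at FT 5 ppm (0.13 ± 0.12), it was larger at the other doses than at PT 80 ppm, with 0.46 ± 0.12 at MT 25 ppm, 0.40 ± 0.12 at FT 10 ppm, 0.34 ± 0.12 at PT 20 ppm, 0.32 ± 0.12 at MT 50 ppm, 0.30 ± 0.12 at both FT 20 and MT 10 ppm, 0.23 ± 0.12 at PT 40 ppm and 0.21 ± 0.12 at FT 2.5 ppm.

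The make-up of the sum also differed between groups. In controls Cyp2c70 alone held 68.7% of the family's counts. Its share was 43.9% at MT 100 ppm and 43.4% at PT 80 ppm. The share of Cyp2c29 was 13.2% in controls, 40.1% at MT 100 ppm and 30.1% at PT 80 ppm, and that of Cyp2c54 was 3.30%, 4.08% and 11.4%. These are shares of counts, which also depend on the probes of each gene. Without Cyp2c70 the sum was 2346 ± 559 CPM in controls, 4123 ± 953 CPM at MT 50 ppm, 8185 ± 1393 CPM at MT 100 ppm and 5205 ± 894 CPM at PT 80 ppm, and all 3 dosed groups were above every control mouse. The means at MT 100 and PT 80 ppm were 3.49-fold and 2.22-fold that of controls.

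**Figure D4:**
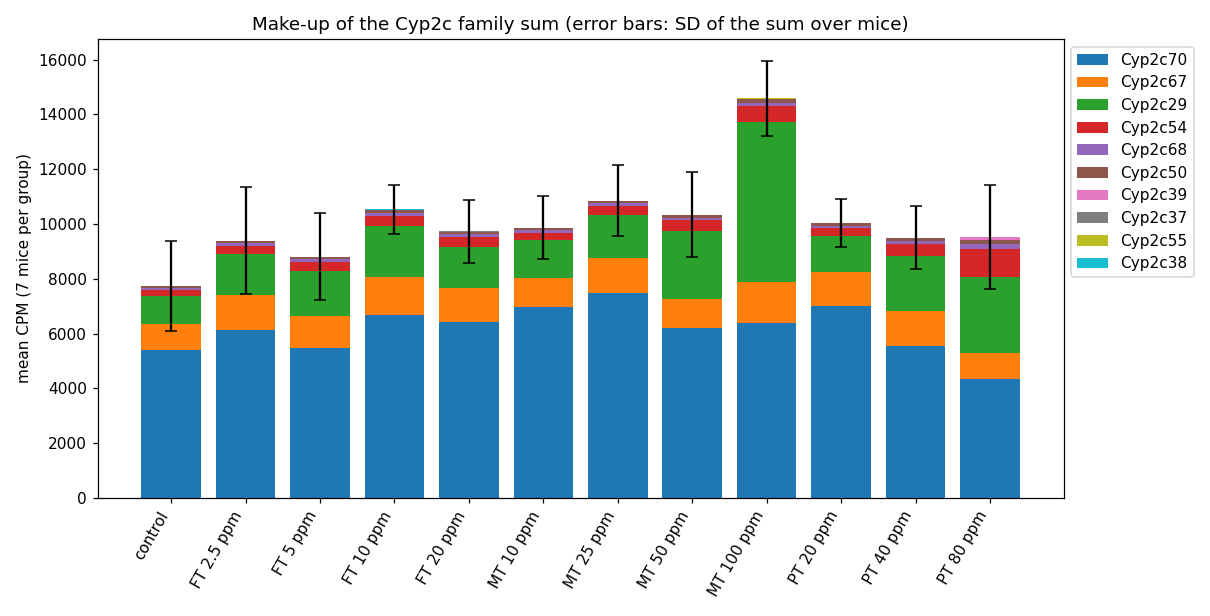
Mean CPM of each member stacked into the family sum (vertical axis) for each group of 7 mice, with error bars for the SD of the sum. The stack is highest at MT 100 ppm, where Cyp2c29 makes up 40.1% of it, and at PT 80 ppm the part of Cyp2c70 is smaller (43.4%) and that of Cyp2c54 larger (11.4%) than in controls.

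The 7 other dosed groups had not been used to choose the members and were tested. In none of them did a member pass the adjusted p threshold (0 of 9 members in each by edgeR, and by DESeq2 0 in 6 groups and 1, Cyp2c29, at PT 40 ppm). At an unadjusted p under 0.05 the number of members was 4 at FT 2.5 ppm (10.7% of all genes), 4 at FT 5 ppm (7.59%), 6 at FT 20 ppm (3.98%), 3 at MT 10 ppm (9.97%), 5 at MT 25 ppm (5.79%), 2 at PT 20 ppm (5.90%) and 5 at PT 40 ppm (8.51%). The smallest adjusted p was that of Cyp2c29 at PT 40 ppm, with a log2 fold change of 0.99 ± 0.21, 6 of 7 mice above the highest control and an adjusted p of 0.0860 (edgeR), which lay between 0.00586 and 0.699 over the alternatives. DESeq2 gave 0.0172 for this value, and edgeR gave 0.00586 without control replicate 7.

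In the remaining groups the member with the smallest adjusted p by edgeR was Cyp2c55 at FT 2.5 ppm (0.83 ± 0.30 on the log2 scale, adjusted p = 0.297) and at MT 10 ppm (0.87 ± 0.29, adjusted p = 0.316). It was Cyp2c29 at FT 5 ppm (0.71 ± 0.21, adjusted p = 0.320), at MT 25 ppm (0.69 ± 0.21, adjusted p = 0.654) and at FT 20 ppm (0.55 ± 0.20, adjusted p = 0.9995). At PT 20 ppm it was Cyp2c50 (0.70 ± 0.27, adjusted p = 0.752). Over the alternatives these ranged from 0.159 to 0.473, 0.132 to 0.665, 0.120 to 0.879, 0.265 to 0.965, 0.391 to 1 and 0.362 to 1, in the order given. The median log2 fold change of the 9 members lay between 0.28 at MT 10 ppm and 0.80 at PT 40 ppm. All 11 comparisons use the same 7 control mice, on which the choice of the members also rests.

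Among the comparisons without control mice, those between groups that had not served to choose the members gave no call. At matched doses there were 2 pairs of pesticides. The pair FT and MT at 10 ppm is given as a description, since FT 10 ppm had served for the choice. There Cyp2c54 was higher with FT by 0.61 ± 0.22 on the log2 scale (SE), Cyp2c39 by 1.05 ± 0.41, and the other 7 members differed by -0.07 (Cyp2c70) to 0.46 (Cyp2c55). Between FT and PT at 20 ppm, by edgeR with adjustment over all genes of both pairs, 0 of 9 passed and 0 had an unadjusted p under 0.05 (3.42% of all genes did), with Cyp2c39 differing by 0.70 (95% interval -0.15 to 1.56). This interval reached past 2-fold and those of the other members up to 0.94, so that FT and PT are not shown to act alike at 20 ppm. Between neighbouring low doses, 0 members passed by edgeR from FT 2.5 to 5, MT 10 to 25 or PT 20 to 40 ppm, and 0, 0 and 2 members had an unadjusted p under 0.05, where 11.3%, 7.71% and 5.66% of all genes did.

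The laboratory that isolated the RNA, a term of the same fit, was associated with 1 member. Cyp2c37 was lower in mice isolated by EPA than by EA, by -0.64 ± 0.23 on the log2 scale (adjusted p = 0.0238, edgeR), where 38.7% of all genes passed the same threshold. The other 8 members did not pass it.

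Within groups, mice with more Cyp2c29 also had more of most other members. After group, block and isolator had been removed, the residuals of log2(CPM + 1) of Cyp2c55 and Cyp2c29 correlated over 84 mice with a Pearson r of 0.753 and a Spearman rho of 0.715 (permutation test, two-sided, p = 1e-05 for each, the smallest it can give, and adjusted p = 2.2e-05 and 1.8e-05 over the 9 relations). Without the 2 mice farthest from the median of Cyp2c29, r was 0.718, and within blocks 1, 3 and 4 it was 0.707, 0.725 and 0.844. Cyp2c54 followed with r = 0.638 and rho = 0.667 (r without the 2 mice 0.612; 0.668, 0.672 and 0.595 within blocks), again at the smallest p. Coding sequences of Cyp2c55 and Cyp2c29 were 77.8% identical. Of the read-length stretches of Cyp2c55, 0.72% matched another Cyp2c transcript with at most 2 mismatches.

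Cyp2c39 (r = 0.587, rho = 0.621), Cyp2c38 (0.497 and 0.571), Cyp2c50 (0.401 and 0.531), Cyp2c68 (0.361 and 0.318) and Cyp2c37 (0.241 and 0.301) also passed, with adjusted permutation p of 0.0337 or less for r. Without the 2 mice their r was 0.600, 0.493, 0.368, 0.274 and 0.252. Within block 4 the r of Cyp2c37 was -0.10. Cyp2c67 did not pass for r (0.214, adjusted permutation p = 0.0568) though it did for rho (0.230, adjusted permutation p = 0.0349). Cyp2c70 went the other way, with r = -0.16 (adjusted permutation p = 0.133) and rho = -0.25 (adjusted permutation p = 0.0243), and -0.01, -0.15 and -0.38 within blocks. The points of each relation share the libraries and their total counts. Coding sequences of Cyp2c39 and Cyp2c38 were 89.5% and 89.1% identical to that of Cyp2c29, and most counts of these genes were not whole numbers. What split reads add to these values was not tested. Cyp2c38 also had a median of only 4.09 counts, near the floor.

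**Figure D5:**
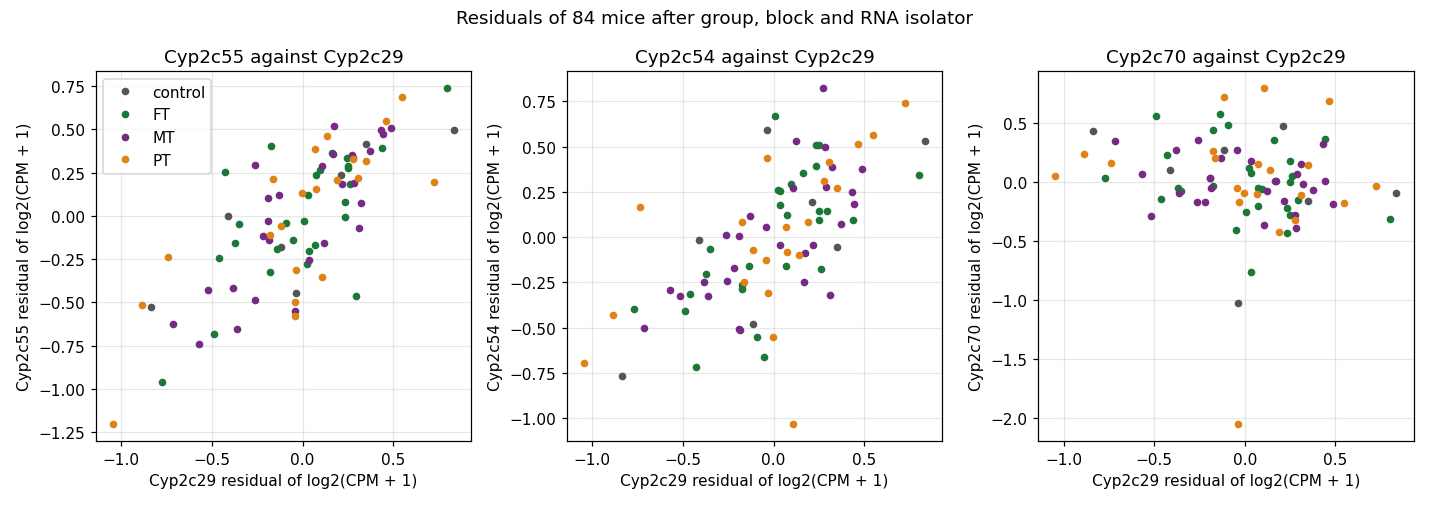
Residuals of log2(CPM + 1) after group, block and isolator for Cyp2c55, Cyp2c54 and Cyp2c70 against those of Cyp2c29; each point is 1 of 84 mice, coloured by pesticide. Cyp2c55 (r = 0.753) and Cyp2c54 (r = 0.638) rise with Cyp2c29, whereas Cyp2c70 (r = -0.16) does not.

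Of 10404 genes outside the family, those with the highest r with the residuals of Cyp2c29 over the same mice included Gsta3 (0.69), a glutathione transferase, Macrod1 (0.68), Maob (0.68), a monoamine oxidase, and Slc47a1 (0.66), an exporter of organic cations. Most like the family sum were Mphosph10 (0.70), Abce1 (0.69), Ttc19 (0.67), Sf3b6 (0.67) and Csnk2a1-ps3 (0.67). These values are given as a description.

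Genes around the family were counted from lists in the same way, with no test of the lists. Of all genes, 0.048% were called higher and 0% lower at MT 100 ppm, and 1.63% higher and 1.67% lower at PT 80 ppm. The lists were chosen with earlier results of these data known, so the counts are a description. Among 12 receptors and partners of CAR and PXR, 0 were called at MT 100 ppm and 2 were called higher at PT 80 ppm, Nr1i3 (1.78 on the log2 scale) and the coactivator Ppargc1a (1.10). Nr1i3 itself read 216 ± 80.3 CPM in controls, 306 ± 39.3 CPM at MT 100 ppm and 753 ± 244 CPM at PT 80 ppm, and Nr1i2 47.99 ± 12.1, 44.9 ± 6.07 and 67.1 ± 9.43 CPM (SD, n = 7). Of 31 other CAR and PXR targets in the fit, 1 was called higher at MT 100 ppm (Cyp3a11, 1.29) and 18 at PT 80 ppm, where the list's median log2 fold change was 1.05. They were led by the sulfotransferase Sult1e1 (6.95), Gadd45b (3.99), the organic anion importer Slco1a4 (3.12) and Sult1d1 (2.06). Sult1e1 had a median of 4.75 CPM at PT 80 ppm and reached 3441 CPM in 1 mouse.

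Cyp2b10, the standard marker of CAR activation in mouse liver, was too low for the fit. It read 0, 0.0853 and 0.178 CPM in controls, 0.454, 6.49 and 27.5 CPM at MT 100 ppm and 0, 0.616 and 15.9 CPM at PT 80 ppm. Every mouse at MT 100 ppm therefore lay above every control, whereas mice at PT 80 ppm overlapped them. Cyp3a11 read 48.5 ± 19.3 CPM in controls, 120 ± 27.7 CPM at MT 100 ppm and 118 ± 46.4 CPM at PT 80 ppm.

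Of 12 P450 electron donors and heme supply genes, 1 was called, P450 reductase Por at PT 80 ppm (2.33), from 41.3 ± 21.8 CPM in controls to 328 ± 382 CPM. Of 6 genes that handle arachidonic acid epoxides or the neighbouring hydroxylation, 1 was called lower at PT 80 ppm, the ω-hydroxylase Cyp4a12a (-1.31). Of 10 bile acid genes, listed for Cyp2c70, 1 was called higher there, Cyp7a1, the rate-limiting enzyme of bile acid synthesis (2.24). Of 9 genes with male-biased expression in mouse liver, 5 were called lower at PT 80 ppm. They were led by Elovl3 (-2.70), Cyp4a12a (-1.31), Cyp4a12b (-1.30) and Cyp2u1 (-1.26). Of 13 female-biased genes listed, only 4 had counts high enough for the fit. These 4 were called higher at PT 80 ppm, Cyp17a1 (2.38), Cyp3a16 (1.45), Cyp2a4 (1.08) and Cyp3a41a (1.05). At MT 100 ppm none of these 5 lists had a called gene, at MT 50 and FT 10 ppm no list had one, and 3.30% of all genes were called in either direction at PT 80 ppm.

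Markers of cells and zones were followed beside these values. Pericentral hepatocyte markers (9 of 10 listed) summed to between 7298 and 15026 CPM in controls, 8238 and 13325 CPM at MT 100 ppm and 16185 and 26474 CPM at PT 80 ppm, so that they cleared the control range in the same group as Cyp2c37, Cyp2c39 and Cyp2c54, and their part in those results was not tested. At MT 100 ppm, where Cyp2c29 and Cyp2c55 were highest, they did not leave it. Periportal markers (10 of 10) summed to between 1673 and 2931 CPM in controls, 2390 and 2831 CPM at MT 100 ppm and 2151 and 4175 CPM at PT 80 ppm. Kupffer cell markers (8 of 8) summed to 134 to 310 CPM, 127 to 205 CPM and 58.7 to 228 CPM, and cholangiocyte markers (5 of 6) to 56.9 to 130.3 CPM, 41.8 to 85.7 CPM and 12.8 to 61.3 CPM in the same order. Endothelial (8 of 8) and stellate cell markers (8 of 8) had medians of 316 and 185 CPM in controls, 321 and 208 CPM at MT 100 ppm and 362 and 215 CPM at PT 80 ppm. Pancreas markers (6 of 7) reached at most 19.1 CPM in controls and intestine markers (3 of 6) lay between 450.5 and 1227 CPM in controls and 58.7 and 1122 CPM at PT 80 ppm. Only 1 gene of each of the cholangiocyte, pancreas and intestine lists had a median count above 8, so these 3 sums say little about those cells or tissues.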

How the data were processed

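TempO-Seq counts came from 1 liver sample of each of 84 mice. The authors trimmed the reads, aligned them with STAR 2.7.8a to mm39 and quantified Ensembl 106 transcripts with Partek E/M, and the estimated counts they deposited carry no normalization. The authors also deposited a table of score values, made by filtering low counts, scaling to CPM, taking log2 and removing block and isolator effects. It served only as an alternative, and in it 3 of the 7 control mice held identical values. The members and the gene lists were chosen with earlier results of these data known.

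Counts were rounded and genes with a median count above 8 were fitted in edgeR 4.0.16 (R 4.3.3; TMM, quasi-likelihood test) in 1 model over all mice with group, block and isolator, with Benjamini-Hochberg adjustment per comparison. The SE was derived from the F statistic, and 95% intervals use 70 degrees of freedom. Comparisons with a group that had served to choose the members carry no p, including FT against MT at 10 ppm, for which a test had been planned. Calls of members in such comparisons are counted as a description only. CPM, ratios within blocks and permutation tests (100000 resamples) were computed in Python 3.11.15 with numpy 2.4.6, pandas 2.3.3 and scipy 1.17.1. In the residual correlations 1 was added to CPM before log2. Sequences were read from GRCm39 with the GENCODE annotation with biopython 1.88, and figures drawn with matplotlib 3.10.9. The fit was tested on simulated data. Alternatives were DESeq2 1.42.0, other scaling, filters and covariates, EA mice only, and leaving out mice.

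All 10 members were named, with values by group or as ranges over groups. From the lists (receptors and partners of CAR and PXR, electron donors and heme supply, other CAR and PXR targets, epoxide handling, bile acid genes, male- and female-biased genes), up to 4 called genes per comparison were named, the largest changes first. In tested groups the member with the smallest adjusted p was named. Cyp2b10 and Nr1i2 were named after their values were seen. Of the 5 genes most like Cyp2c29, 1 is not reported here. Each mouse is 1 sample, and total counts of 6950381 to 15300589 limit what can be seen of Cyp2c38 and Cyp2c55.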

Additional observations from a re-analysis of the deposited data

Results flagged for a closer look

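In 132 combinations of a member or the family sum with a group, 1 mouse stood apart from the other 6 (Dixon's criterion) in 13, of which 10 were the highest value; chance gives about 1 in 20. Of the 13, 5 came from a single mouse, MT 50 ppm replicate 4, which had the highest Cyp2c38 (1.50 CPM), Cyp2c39 (27.2 CPM), Cyp2c50 (168 CPM), Cyp2c54 (698 CPM) and Cyp2c68 (141 CPM) of its group. Without it Cyp2c29 was still called at MT 50 ppm.

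Among controls, Cyp2c39 had a mouse that stood apart at 18.9 CPM, and at FT 10 ppm one at 42.4 CPM. Cyp2c37 had a high mouse at MT 25 ppm (6.01 CPM) and at PT 20 ppm (6.62 CPM) and a low one at FT 10 ppm (1.47 CPM). Cyp2c50 had a high mouse at MT 25 ppm (134 CPM). Low mice stood apart for Cyp2c67 at FT 5 ppm (725 CPM) and for Cyp2c68 at FT 2.5 ppm (63.7 CPM).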

How the results depend on the processing

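No paired analysis was possible because each mouse gave 1 sample in 1 group. The replicate numbers used here only count the mice of a group and pair no mice between groups. No called value changed sign under any alternative run, while Cyp2c50 at PT 20 ppm, not called, went from 0.70 to -0.05 in the adjusted table. Of the counts of members, that at FT 10 ppm (1) was 0 when the control and FT mice were fitted alone and 0 to 2 when 1 control mouse was left out. That at MT 100 ppm (4) was 2 among mice isolated by EA, and that of members with an adjusted p under 0.05 at PT 40 ppm (0) was 1 by DESeq2 and 0 to 1 without 1 control mouse. The study's rule on the adjusted values passed 2 members for FT (Cyp2c39 and Cyp2c37, where 9.93% of all genes passed), not Cyp2c55, the 1 edgeR called. It passed 5 for MT (7.90%), with Cyp2c39 and Cyp2c37 but without Cyp2c50, and 4 for PT (9.39%), with Cyp2c67 but without Cyp2c29 and Cyp2c50. Leaving out Cyp2c70 moved the log2 fold change of the family sum to 0.48 at FT 5 ppm, 0.76 at MT 50 ppm, 1.80 at MT 100 ppm, 0.71 at PT 40 ppm and 1.05 at PT 80 ppm. The 0.98 of Cyp2c68 at PT 80 ppm passed 2-fold with library totals (1.08), which moved the median of all genes there by 0.12, and without control replicate 2 (1.09), 5 (1.00) or 7 (1.00) or PT 80 ppm replicate 3 (1.00). In the adjusted table, 18 of 27 member values moved by more than 1 SE, among them Cyp2c29 (0.95) and Cyp2c50 (0.70) at PT 80 ppm. The cause of these changes was not tested. Leaving out PT 80 ppm replicate 1 or 3, or MT 50 ppm replicate 4, was added after seeing the data, as were the sums of near copies.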
